A study of Caenorhabditis elegans with 2 samples.

Results

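The intergenic peaks of the Caenorhabditis elegans protein F33H1.4 that lie away from promoters were examined in 1 chromatin immunoprecipitation and sequencing experiment. F33H1.4 is annotated by RefSeq as a protein with a C2H2-type domain, a zinc finger fold in which each finger can contact a few bases of DNA. The animals were whole young adults at 62.5 hours of strain RW12303, in which CRISPR insertion placed TY1, EGFP and 3xFLAG tags at F33H1.4 on chromosome II, and every library came from this tagged strain. Worms were synchronised by bleaching and starvation at the first larval stage, their chromatin was sonicated to 200 to 800 bp, and the tagged protein was recovered with an antibody to GFP in 2 biological replicates. A control library was not analysed here, so enrichment over input was not measured, and whole animals give no cell type for a peak.

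Of the 3250 peaks in the thresholded list of the series, 457 were kept by position alone. Their summits lay in no annotated gene of any kind, away from every protein-coding 5' end (no closer than 1000 bp on its upstream side and 200 bp on its downstream side), and more than 200 bp from any tRNA, snoRNA or snRNA gene of the Ensembl WBcel235 annotation. The other classes were 2034 promoter peaks, 457 intronic peaks, 175 exonic peaks, 90 peaks in non-coding genes and 37 peaks beside small RNA genes. That the numbers of intergenic and intronic peaks were equal is a coincidence of the counts. All values of signal below are the seventh column of the deposited lists, whose scale is not given in the sources used here. Peaks of 1 library are not replicates of each other, so shares are given as descriptions with exact binomial 95% intervals that cover counting error only.

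The worm genome is compact, and most intergenic sequence lies within a short distance of a gene, either upstream of a promoter or downstream of a 3' end where transcription terminates. Between genes facing one another tail to tail there is no promoter at either edge, while between genes facing apart both edges are promoters. The remaining intergenic sequence is rich in dispersed transposon remnants and in satellites, which are short units repeated head to tail. A peak in such sequence can be counted more than once when reads from one copy align to another, and how such reads were placed is not given in the sources used here.

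A pair of short words marked many of these peaks, and sequences that carry them are shown first because several of the strongest peaks with a single genomic copy held them. The windows run 50 bp to each side of the summit on the plus strand of WBcel235, were read from the RefSeq genome, and carry in capitals each match to GGCGCA or AGACCC on either strand.
jmjd-2 to hmg-1.1, chrII:14245027-14245127: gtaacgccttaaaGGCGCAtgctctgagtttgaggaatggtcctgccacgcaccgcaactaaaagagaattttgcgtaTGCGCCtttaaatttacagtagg
K08D9.4 to apx-1, chrV:3204579-3204679: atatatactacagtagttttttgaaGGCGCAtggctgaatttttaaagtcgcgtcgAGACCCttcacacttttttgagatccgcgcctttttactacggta
Y67H2A.7 to fat-1, chrIV:13311479-13311579: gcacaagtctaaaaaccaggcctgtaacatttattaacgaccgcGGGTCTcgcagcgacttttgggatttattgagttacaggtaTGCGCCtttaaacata
T25B9.12 to T25B9.8, chrIV:10766226-10766326: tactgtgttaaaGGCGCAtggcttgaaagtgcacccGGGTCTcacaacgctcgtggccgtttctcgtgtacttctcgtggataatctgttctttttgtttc
The peak between jmjd-2, a lysine-specific histone demethylase gene, and hmg-1.1, an HMG box gene, held 2 copies of the first word and none of the second. The peak between K08D9.4 and apx-1, a gene for a Notch ligand of the early embryo, held 1 copy of each. The same was true of the peak between Y67H2A.7 and fat-1, which encodes an omega-3 fatty acid desaturase, and of the peak between T25B9.12 and T25B9.8.

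Other peaks among the strongest held neither word. A pair of them, beside C46C2.7 and beside zip-11, carried the same 96 bases, which are in capitals.
C46C2.7 to wnk-1, chrIV:9196358-9196458: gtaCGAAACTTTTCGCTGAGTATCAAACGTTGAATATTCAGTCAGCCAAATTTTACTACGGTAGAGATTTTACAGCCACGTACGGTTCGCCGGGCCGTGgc
zip-11 to F42A6.5, chrIV:3313479-3313579: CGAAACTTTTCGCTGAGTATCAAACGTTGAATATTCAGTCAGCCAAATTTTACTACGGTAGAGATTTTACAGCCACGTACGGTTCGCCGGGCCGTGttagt
The following windows belong to the remaining strongest peaks found in both replicates, taken from different intergenic intervals, and hold no match to either word on either strand.
K08F11.1 to fbxb-78, chrIV:4725555-4725655: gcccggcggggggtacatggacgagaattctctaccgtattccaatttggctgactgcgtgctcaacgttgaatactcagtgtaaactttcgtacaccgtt
Y48B6A.10 to Y48B6A.13, chrII:14218279-14218379: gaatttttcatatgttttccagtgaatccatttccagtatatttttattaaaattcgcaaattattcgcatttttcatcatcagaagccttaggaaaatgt
F31E3.6 to prk-1, chrIII:6985275-6985375: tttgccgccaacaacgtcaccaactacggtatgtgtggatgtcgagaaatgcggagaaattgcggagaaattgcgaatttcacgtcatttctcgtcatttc
ddx-19 to lat-1, chrII:8890165-8890265: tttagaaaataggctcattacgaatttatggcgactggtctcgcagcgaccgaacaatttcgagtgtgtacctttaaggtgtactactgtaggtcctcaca
Tandem satellites under the peaks took a different form. In the window between srd-23 and sra-30 the word AGACCC, in capitals, recurred 6 times at steps of 15 bp.
srd-23 to sra-30, chrIV:15188457-15188557: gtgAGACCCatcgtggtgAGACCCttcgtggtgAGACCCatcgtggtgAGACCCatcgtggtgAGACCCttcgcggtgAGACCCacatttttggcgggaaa
In the window between Y41E3.13 and Y41E3.18 the capitals mark GAANNTTC and TTCNNGAA, arrangements of the units that heat shock factor recognises in many animals. The letters alone do not show that any factor bound them.
Y41E3.13 to Y41E3.18, chrIV:15059275-15059375: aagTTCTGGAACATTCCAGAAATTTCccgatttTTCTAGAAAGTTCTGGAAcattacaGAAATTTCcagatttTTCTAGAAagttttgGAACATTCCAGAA

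The deposited signal of the 457 intergenic peaks ran from 2.18 to 3382, with a median of 138.0. Their median percentile in the series list was 42.8, against 60.7 for promoter peaks and 35.7 for intronic peaks. The strongest 10% of the list held 36 of them and the weakest 10% held 50. The intergenic peaks were thus spread over the whole range of the list, lower on the median than promoter peaks and higher than intronic ones. Peak width was exactly 340 bp in 236 of the 457, or 51.6%, and in 44.3% of all peaks.

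The strongest intergenic peak, in the interval between jmjd-2 and hmg-1.1, had a signal of 3382 in the series list, where it ranked 19, with 1422 in replicate 1 and 1970 in replicate 2. A second peak stood 2331 bp away in the same interval, with 2243 in the series list, 907.6 in replicate 1 and 1336 in replicate 2. The peak between K08D9.4 and apx-1 had 2045 in the series list, 830.9 in replicate 1 and 1225 in replicate 2. Each of these peaks was present in both replicates and stood higher in replicate 2.

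The interval between K08F11.1 and the F-box gene fbxb-78 also held a strong pair, with series signals of 1924 and 1920. The summit window of the first held no 31-base stretch unique in the genome, nor did that between F31E3.6 and prk-1. The peak downstream of Y48B6A.10 had 738.8 in replicate 1 and 1101 in replicate 2. The peak downstream of ddx-19, which encodes a DEAD-box RNA helicase, had 700.3 in replicate 1 and 1000 in replicate 2. Further down, the 20 strongest included peaks beside ife-5, an eIF4E family gene, beside eat-6, which encodes a sodium pump subunit, beside the afadin gene afd-1 and beside the nuclear import gene imb-3, the last with a series signal of 1415. All 20 were found in both replicates, and 8 of the 20 held either word at the summit.

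An intergenic peak was counted as found in a replicate when it overlapped a peak of that replicate's own thresholded list by at least 1 bp. By this measure 289 were found in replicate 1 and 336 in replicate 2, which are 63.2% and 73.5%, where the shares over all 3250 peaks were 66.0% and 79.3%. Both replicates held 251 of the 457, or 54.9% (50.2 to 59.6%). The share over all peaks was 60.1%, that of promoter peaks 68.98% and that of intronic peaks 42.7%. In the stronger 50% of the list 187 of 198 intergenic peaks were found in both replicates, or 94.4%, as were 95.5% of all peaks there. The more stringent conservative series list held 389 of the intergenic peaks, or 85.1%, against 87.7% of all peaks.

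Agreement between replicates went with signal. The 251 peaks in both replicates had a median percentile of 64.3, the 123 in 1 replicate alone had 27.6 and the 83 in neither had 12.1. Over all peaks the medians were 69.9, 29.3 and 12.6 in the same order. The peaks in 1 replicate alone were 26.9% of the intergenic peaks and 25.05% of all peaks, and those in neither were 18.2% and 14.8%. Nearly all intergenic peaks had some overlap in the unthresholded lists, 455 in replicate 1 and 454 in replicate 2, as did 98.6% and 99.5% of all peaks, but those lists hold 33529 and 30974 entries. Among the peaks in both replicates, replicate 2 was the higher in 204 of 251, with a median ratio of replicate 2 to replicate 1 of 1.35. Over all peaks it was the higher in 1714 of 1954, with a median ratio of 1.425, although the 2 lists were made separately and a ratio between them need not reflect occupancy. Between the 2 replicates Spearman's rho was 0.913 over these 251 peaks, given as a description because the peaks share their libraries. It was 0.945 over the 138 peaks with 1 genomic copy and 0.71 over the 46 peaks with over 100 copies. Signals of peaks with over 100 copies did not exceed 227.4 in replicate 1 and 310.1 in replicate 2. With 1 copy the highest were 1422 and 1970, so the values of rho cover unlike ranges of signal.

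**Figure D1:**
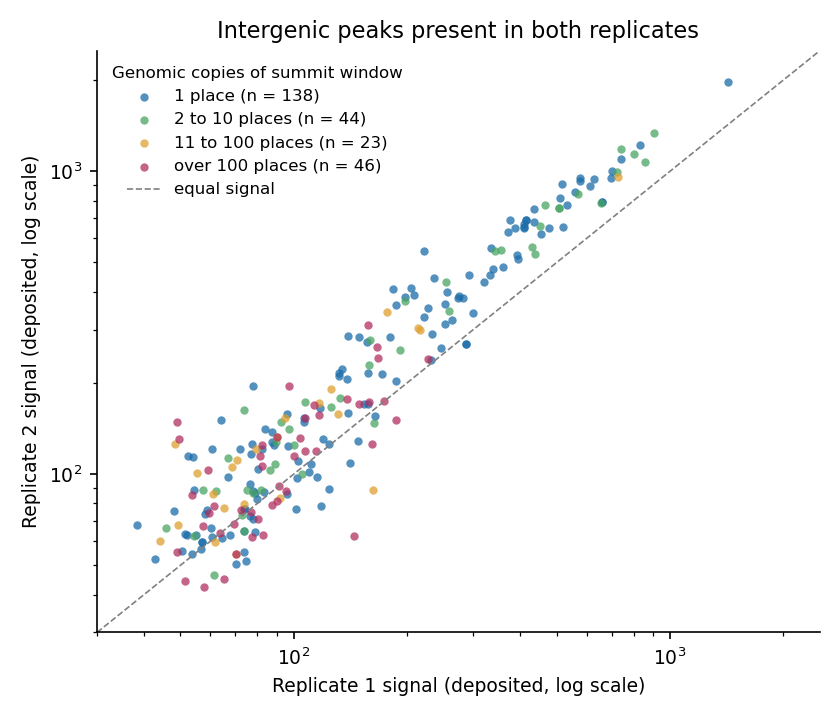
Signal of each intergenic peak found in both replicates, replicate 1 on the horizontal and replicate 2 on the vertical axis, both logarithmic, coloured by how many places in the genome the summit window aligned to. Most of the 251 points lie above the dashed line of equal signal, and the 46 points with over 100 copies do not exceed 310.1 in either replicate.

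Some peaks were found in 1 replicate alone at appreciable signal. The peak between ari-1.4 and Y73F8A.35 had 289.8 in replicate 1 and no overlapping peak in either list of replicate 2. Its series signal was 598.1, and its window aligned to 9 places in the genome. The peak between R151.1 and der-2 had 179.7 in replicate 2, and in replicate 1 it appeared only in the unthresholded list, at 52.5. The peak between W06B4.1 and T05C1.1 had 148.4 in replicate 2, no overlap in replicate 1 and a series signal of only 4.63. Another summit of the series stood 203 bp from it. In all, 38 intergenic peaks, or 8.32%, were found in replicate 1 alone and 85, or 18.6%, in replicate 2 alone, and over all peaks the shares were 5.88% and 19.2%. These 3 were among the strongest of them.

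The first word, GGCGCA, lay within 50 bp of the summit in 79 of the 457 intergenic peaks, or 17.3%. It was in 1.53% of windows of the same length centred 300 bp to either side and in 1.46% of all 196678 such windows that tile the sequence where an intergenic peak could fall. Among promoter peaks its share was 22.8%, with 1.84% in their flanks. The second word, AGACCC, lay at the summit of 132 intergenic peaks, or 28.9%, with 6.35% in the flanks and 1.88% of all eligible windows. The overlapping word AGGCGC was at 81 summits, and the GC-only words GCGCGC and CGCGCG, which overlap each other, were at 35 and 28. The words were picked from those most frequent relative to the flanks in these same windows, AGACCC in a ranking of single-copy peaks alone. Their frequency is therefore a description and not a test.

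The words were also present where the summit window had 1 genomic copy. Of these 248 peaks, 51 held GGCGCA, or 20.6%, and 49 held AGACCC, or 19.8%. In the flanks of the same peaks the shares were 1.81% and 2.22%. Among longer words that contain them, TAAAGGCGCA was present in 28 of the 248 and CGAGACCC in 34. At promoter peaks the same longer words occurred in 233 and 267 of 2034. Intergenic peaks with a single copy thus carried the words that promoter peaks carried, at similar shares.

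**Figure D2:**
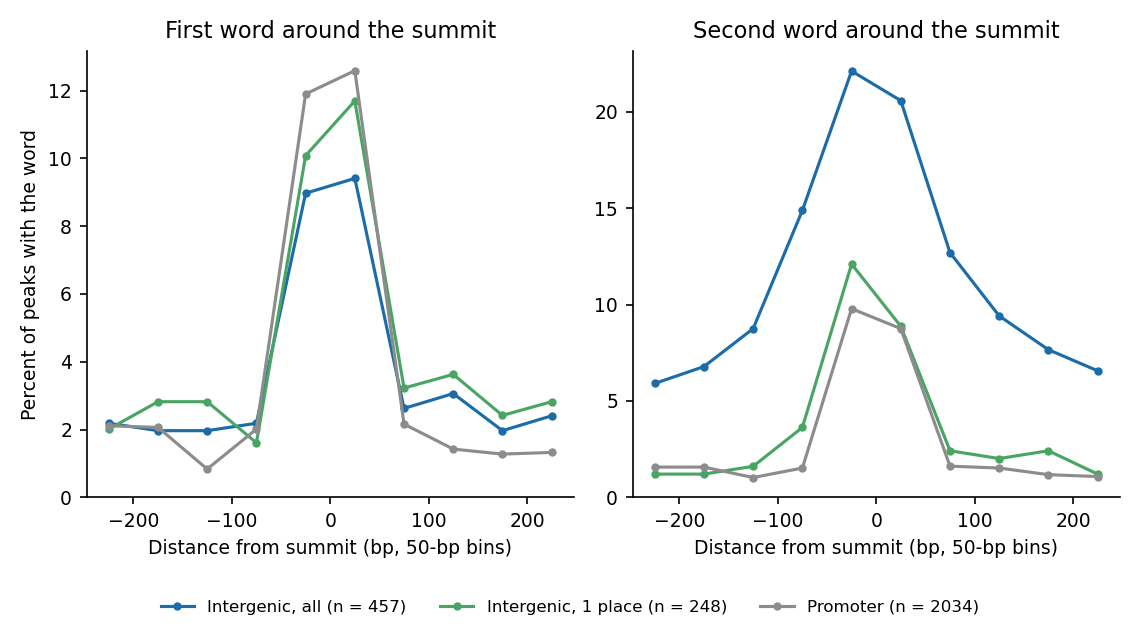
Percent of peaks with the first word (GGCGCA, left) or the second word (AGACCC, right) in 50-bp bins around the summit, for all 457 intergenic peaks, the 248 of them with 1 genomic copy and the 2034 promoter peaks; the vertical scales differ. Both words are most frequent in the bins on either side of the summit, and the second word extends farther from it over all intergenic peaks, among which are satellite arrays.

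Signal and replication also differed with the words, which were chosen with earlier results of these data known. The 79 intergenic peaks with GGCGCA had a median signal of 328.3, against 121.9 for the 378 without it. Both replicates held 72.2% of the 79 and 51.3% of the 378. Other classes differed in the same direction. With and without GGCGCA, both replicates held 87.0% and 63.7% of promoter peaks, and 53.0% and 40.4% of intronic peaks. Median signals were 431.7 and 176.2 at promoter peaks, and 152.8 and 112.0 at intronic peaks. The 132 intergenic peaks with AGACCC had a median signal of 169.2, against 118.7 for the 325 without it. Both replicates held 67.4% of the 132 and 49.8% of the 325. With and without AGACCC, both replicates held 88.8% and 64.8% of promoter peaks, and 45.1% and 41.9% of intronic peaks. Among intergenic peaks with 1 genomic copy the median signal was 492.7 with AGACCC and 116.5 without it. The 29 intergenic peaks that held both words stood at a median percentile of 81.2, and the 275 with neither stood at 33.6. No intergenic peak with over 100 copies held GGCGCA, while 57 of those 87 held AGACCC.

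Known elements were searched on both strands as well. Less frequent at summits than beside them were the TATA box TATAAA, the GATA factor site TGATAA and runs of TTTTTTT. So were the polyadenylation signal AATAAA, the splice acceptor sequence TTTTCAG and the word TTTGAA. More frequent at summits were the run GAGAGA and the word CTGCGTCTC. For the other elements the exact binomial interval of the summit share held the flank share, so no direction is given. These were the GC boxes CCCGCC and GGGCGG, the CCAAT box, the cyclic AMP response element TGACGTCA and the AP-1 site TGACTCA. They also included the forkhead site TGTTTAC, the polymerase III promoter boxes TGGCNNAGT and GTTCGANNC, the E-box CACGTG and the telomere repeat TTAGGC. The telomere repeat was at 2.63% of summits and 2.87% of all eligible windows, and CCCGCC at 6.78% and 2.05%. Among single-copy peaks the box CCCGCC, the CCAAT box and the word TTTGAA were more frequent at summits than in flanks. Intervals for those single-copy shares were not computed. A missing match says only that these letters are not in the window. The GAGAGA run was at 46 summits, or 10.1%, with 5.14% in flanks. The word CTGCGTCTC was at 17 summits, or 3.72%, with 0.66% in flanks, and peaks with it had a median signal of 111.9, against 138.1 without it. The TATAAA box was at 5.25% of summits and 10.5% of flanks, and runs of TTTTTTT were at 10.7% of summits and 24.0% of flanks. The choice of the peaks leaves out summits near tRNA genes, and the counts of the polymerase III boxes, such as 6 summits with GTTCGANNC, cannot be read apart from that choice.

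Summits were richer in G and C than their surroundings. The median over intergenic peaks was 42.6% at the summit window and 35.1% in the flanks, and the median difference was 7.92 percentage points. It was 3.73 points when the windows reached 100 bp to each side. It was 8.91 points at promoter peaks and 9.41 points at intronic peaks. The summit stood above its flanks in 351 of the 457, or 76.8%, and in 79.8% of all peaks. At peaks with 1 genomic copy the median difference was 5.45 points, and at the 68 peaks on tandem repeats it was 15.6 points.

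Repeated sequence was common under the intergenic peaks. When the sequence 75 bp to each side of every summit was aligned to the genome, 248 windows, or 54.3%, had 1 place, 69 had 2 to 10, 53 had 11 to 100 and 87, or 19.0%, had over 100. Promoter peaks had 1 place in 85.1% and over 100 in 1.62%, and intronic peaks had 42.2% and 12.7%. The window was a tandem repeat, with at least 70% of its bases matched at some step of up to 60 bp, in 68 intergenic peaks, or 14.9%, against 0.93% of promoter peaks and 8.10% of intronic peaks. The summit base was masked as a repeat in 44.9% of intergenic peaks (40.2 to 49.5%), an interval that includes the 42.4% of all eligible bases, and in 39.4% of those in the stronger 50% of the list.

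Windows that aligned to one another formed 19 families with 134 of the 457 peaks. The largest family had 68 peaks, of which 50 were tandem arrays, and 48 of these 50 matched themselves best at a step that is a multiple of 15 bp. The word AGACCC was at the summit of 65 of the 68. Their signal ran from 5.86 to 456.6 with a median of 139.9, and 42 were found in both replicates. The sequence occurs at 274 places in the genome, and 106 of them, or 38.7%, had a summit of the series. None of the 20 strongest intergenic peaks belonged to this family, whose strongest was the one between srd-23 and sra-30, both genes of chemoreceptor families, at 157.2 in replicate 1 and 310.1 in replicate 2.

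Copies of 1 family can lie side by side. The interval between T02H6.3 and T02H6.11 on chromosome II held 6 peaks of the largest family within 3372 bp, with series signals from 70.3 to 442.1, and 3 of the 6 were found in both replicates. Of 393 intergenic intervals with a peak, 52 held more than 1. Where copies are this alike, reads of one cannot be told apart from reads of another unless they span a difference, and 34 of the 457 summit windows, or 7.44%, held no 31-base stretch unique in the genome, against 2.80% of all peaks.

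A small family was the strongest. Family 4 had 5 peaks, and 4 of the 5 were found in both replicates. Their series signals were 1928 beside C46C2.7, 1712 beside zip-11, 1438 between K07D4.2 and gadr-4, 892.1 beside map-2 and 598.1 beside ari-1.4. Its sequence occurs at 9 places in the genome, and 7 of these had a summit. Family 5 had 4 peaks with signals from 519.5 to 1920, all in both replicates, and 6 of its 11 genomic places had a summit. By contrast, family 2 had 15 peaks with a highest signal of 172.1, its sequence occurs at 955 places, and 29 of them, or 3.04%, had a summit.

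The heat shock element arrays made up family 3, with 8 peaks of signal 89.8 to 334.6. All 8 windows held GAANNTTC at least 3 times, as did 2.41% of all intergenic peaks and 0.34% of the eligible windows. The strongest, between Y41E3.13 and Y41E3.18, had 173.6 in replicate 1 and 173.8 in replicate 2. Of the 140 genomic places of this sequence 17 had a summit, and 5 of the 8 peaks were found in both replicates.

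**Figure D3:**
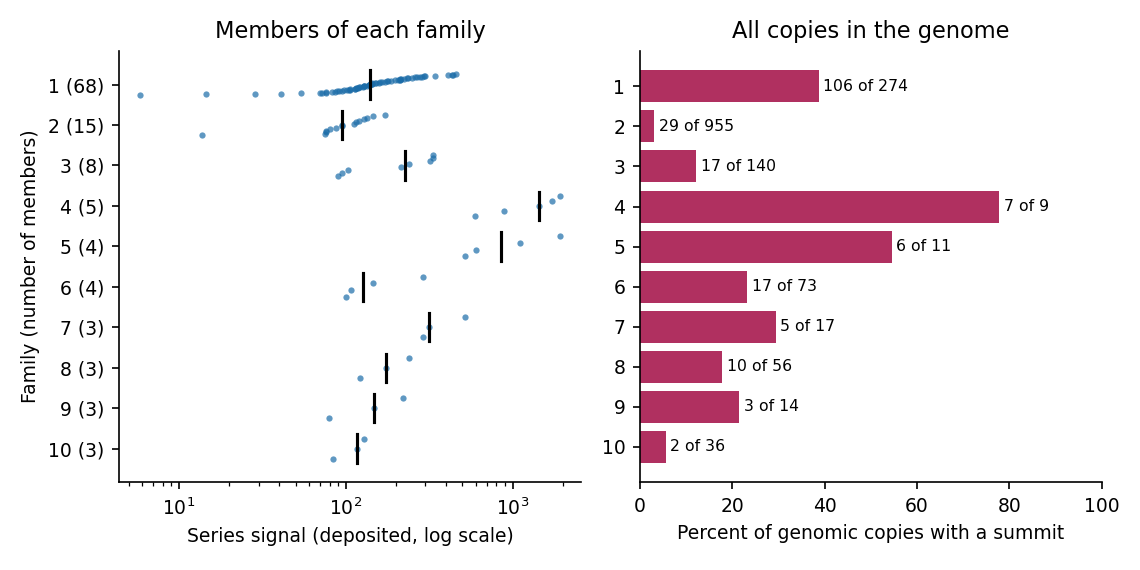
Left, series signal of each intergenic peak (points, logarithmic axis) in the 10 families with at least 3 peaks, with the median as a black bar; right, the percent of all genomic copies of the family that have a summit of the series, with the counts. Family 4 has the highest signals and 7 of 9 copies with a summit, and family 1 has the most peaks, with 106 of 274.

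Intergenic peaks lay downstream of genes more often than the sequence available to them. Within 500 bp of the 3' end of a flanking protein-coding gene there were 199 of the 457, or 43.5% (38.9 to 48.2%), while 15.2% of all eligible bases lie there. The excess was greatest between 100 and 200 bp, where 68 peaks, or 14.9%, stood on 3.43% of the eligible bases. Of peaks with 1 genomic copy 55.6% were within 500 bp of a 3' end, against 15.3% of eligible bases outside masked repeats. Peaks near 3' ends had a single copy in 138 of 199, or 69.3%, and the other intergenic peaks in 110 of 258, or 42.6%.

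**Figure D4:**
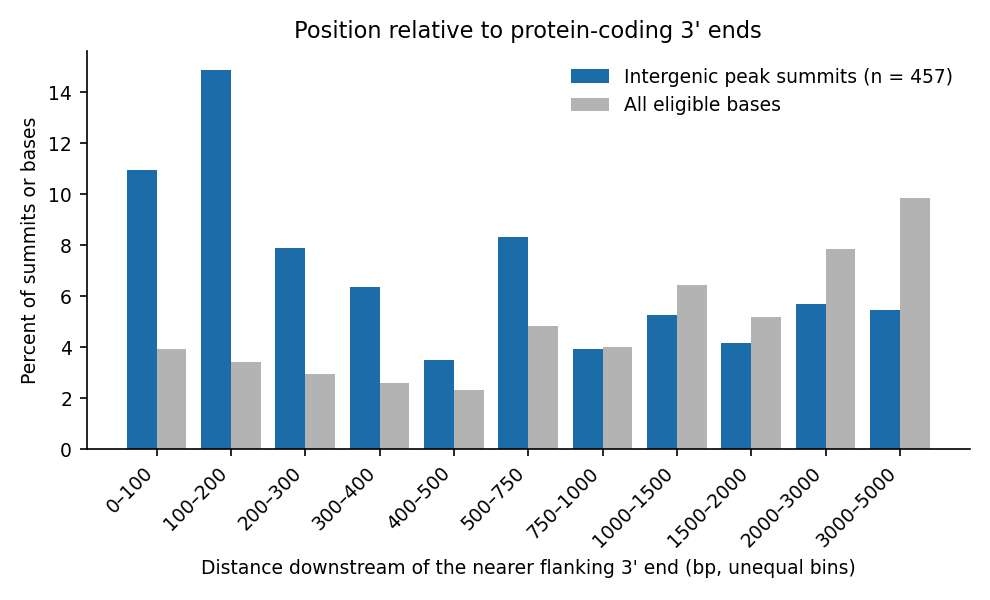
Percent of the 457 intergenic summits (blue) and of all eligible bases (grey) by distance downstream of the nearer flanking 3' end, in bins of unequal width. Summits exceed bases in each bin out to 750 bp; 35 summits farther than 5000 bp and 73 between genes facing apart, which have no flanking 3' end, are not drawn.

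Genes with such a peak at their 3' end often had a promoter peak as well. The 199 peaks stood downstream of 192 genes, and 94 of these genes, or 49.0%, had a summit in their promoter window. Of all 9833 genes with eligible sequence within 500 bp of their 3' end the share was 8.87%. The promoter peak was the stronger in 83 of the 97 peaks so paired, with a median of 669.2 at the promoter and 125.7 at the 3' end. The median distance between the paired summits was 2291 bp and the smallest was 845 bp. Among all 772 genes that flank an intergenic peak on either side 198 had a promoter peak, or 25.6%, against 8.41% of the 13234 genes that flank eligible sequence.

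The 2 words were found at a lower share of the 3' peaks than of the others. Either word was at 56 of the 199, or 28.1%, and at 126 of the 258 other intergenic peaks, or 48.8%. It was at 19 of the 97 beside a gene with a promoter peak and at 37 of the 102 beside a gene without one. Of the 199 peaks near 3' ends 195 lay outside the largest family, in which AGACCC was at 65 of 68 summits. Shares of the words outside that family were not computed, so the contrast cannot be told apart from where its peaks lay. Signal was moderate, with a median percentile of 38.4 near 3' ends and 45.1 elsewhere, and the shares found in both replicates were 53.8% and 55.8%.

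Ribosomal protein genes, which encode components of the ribosome, were frequent among the neighbours. Of 35 ribosomal protein genes that flank eligible sequence, 16 flanked an intergenic peak, where the share over all genes flanking such sequence was 5.83%. All 16 had the peak on their 3' side, 14 within 500 bp, and 15 of the 16 had a promoter peak too. The choice of peaks leaves out 1000 bp upstream of each 5' end and has no such limit at 3' ends, which favoured the 3' side beforehand. The share of all ribosomal protein genes with a promoter peak is not given beside the 15. The peak 119 bp beyond the 3' end of rps-6 had 118.0 in replicate 1 and 78.8 in replicate 2. The peak 80 bp beyond rpl-21 had 86.3 in replicate 1 and 103.2 in replicate 2, and the one 1 bp beyond rps-2 had 54.2 in replicate 1 and 88.4 in replicate 2. Of the 17 peaks beside these genes 12 were found in both replicates, 4 in 1 alone, and that beyond rps-15 in neither. A pair of the 12, beyond rpl-13 with series signals of 122.4 and 15.4, overlap each other and match the same peak in each replicate. They are not separate sites.

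Germline and oocyte genes gave 8 of 29, each with the peak on the 3' side and each with a promoter peak. They include pgl-1 and pgl-3, which encode P granule proteins, glh-1, which encodes a helicase of the same granules, pos-1, which encodes an RNA-binding protein of the early embryo, and rme-2, which encodes the yolk receptor of oocytes. Of the 8 peaks 5 were found in both replicates, 2 in 1 alone, and that beyond pgl-3 in neither. Their 3' side and promoter peaks carry the same limits as those of the ribosomal protein genes. The peak 93 bp beyond pos-1 had 107.3 in replicate 1 and 173.2 in replicate 2. The peak 103 bp beyond pgl-1 had 78.8 in replicate 1 and 64.2 in replicate 2, and the one 172 bp beyond rme-2 had 96.0 in replicate 1 and 86.1 in replicate 2. Meiotic genes gave 4 of 9, among them htp-1, which encodes a chromosome axis protein, and rad-51, which encodes a recombinase. Of these 4 peaks 3 were found in both replicates, and the one 4762 bp from zhp-1 was in neither. Cell cycle and replication genes gave 5 of 23, including the sliding clamp gene pcn-1, but none of these 5 peaks was found in both replicates and 2 were found in neither.

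Most of the other gene lists lay below the share of 5.83% over all genes flanking eligible sequence. Chemoreceptor genes gave 12 of 953, nuclear hormone receptor genes 6 of 202, F-box genes 8 of 212 and collagen genes 3 of 100. The lists of proteasome genes, at 2 of 12, and of major sperm protein genes, at 2 of 23, lay above it. The peak 111 bp beyond the proteasome gene pbs-1 was only 12 bp beyond the 3' end of K08D12.4. Homeobox genes gave 2 of 51, C-type lectin genes 6 of 162 and chaperone genes 1 of 29. No intervals were computed for these lists, and counts of 1 or 2 genes are too few to set a list above or below 5.83%. Neither the 48 histone genes nor the 51 cytochrome P450 genes that flank eligible sequence had an intergenic peak beside them.

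The orientation of the flanking genes was also counted. Between genes that converge, meeting at their 3' ends, there were 134 intergenic peaks, or 29.3% (25.2 to 33.7%), on 15.3% of the eligible bases. Between genes facing the same way there were 250, or 54.7%, on 53.5% of the bases. Between diverging genes there were 73, or 15.97% (12.7 to 19.7%), on 31.1%. Of the 199 peaks near 3' ends 45.2% were between converging genes, and of the other 258 the share was 17.1%. The 15.3% covers eligible bases at any distance from a 3' end, and the share of bases beyond 500 bp was not computed. The peaks between diverging genes had the highest median signal, 204.1, with 137.1 between genes of the same direction and 121.1 between converging genes.

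The median distance to the nearest protein-coding 5' end was 2074 bp, and 2655 bp for eligible bases. The upstream limit of 1000 bp was a sharp line through a continuous set of peaks. Just inside the intergenic class were the peaks 1018 bp upstream of slc-17.2, 1020 bp upstream of sar-1 and 1043 bp upstream of ivd-1, with signals of 80.3, 86.2 and 106.8. Just outside it were peaks 997 bp upstream of rbr-2, 987 bp upstream of Y17G9B.2 and 981 bp upstream of C34B4.5, with signals of 1132, 155.5 and 168.7.

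Among non-coding genes, which a summit may approach but not enter, pseudogenes were within 500 bp of 42 intergenic peaks, or 9.19%, on 4.92% of eligible bases. The small piRNA genes, which lie in clusters, were within 500 bp of 11 peaks, or 2.41%, on 8.42% of eligible bases. The lincRNA genes were near 7 peaks, or 1.53%, on 0.48% of bases.

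The chromosomes differed in density. Eligible sequence covered 21.5 Mb of the genome, and per Mb of it there were 41.2 intergenic peaks on chromosome I, 25.3 on II, 33.1 on III, 23.1 on IV, 17.2 on V and 4.86 on X. The interval on X, 3.15 to 7.18 per Mb, lay below those of the autosomes, of which the lowest began at 13.4 on V. The ratio of X to the autosomes together was 0.185, and it was 0.119 in the list of replicate 1, 0.188 in that of replicate 2 and 0.0826 in the stronger 50% of the series list. The 25 peaks on X were weak, with a median signal of 111.1 and a maximum of 332.7 beside fbxa-190, and 9 of the 25 were found in both replicates. Outside the intergenic class X held 68 peaks, and per Mb of chromosome the ratio of X to autosomes for those peaks was 0.116.

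**Figure D5:**
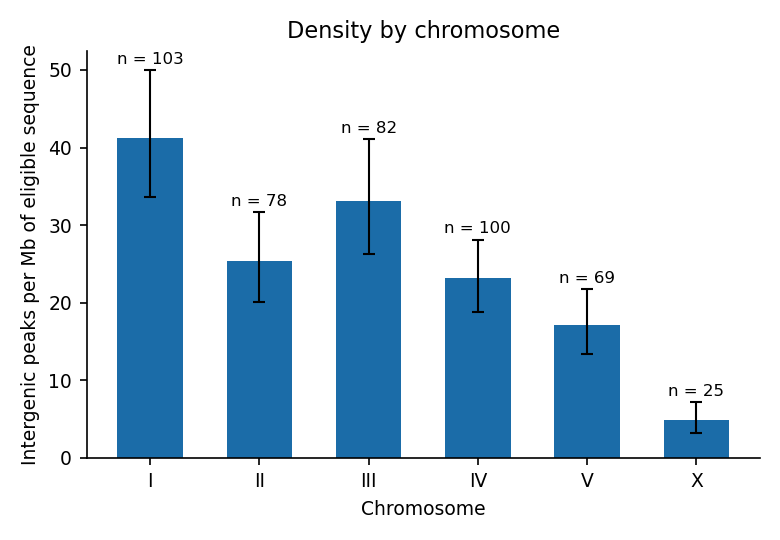
Intergenic peaks per Mb of eligible sequence on each chromosome, with exact Poisson 95% intervals that cover counting error only and the number of peaks above each bar. Density is highest on I, at 41.2, and lowest on X, at 4.86.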

How the data were processed

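Anti-GFP immunoprecipitates of tagged F33H1.4 from whole young adults were sequenced in 2 biological replicates, which form 1 group, so no comparison between conditions was possible. The deposited peak lists give, per the file headers and names, peaks ranked and thresholded by the irreproducible discovery rate on build ce11, the same assembly as WBcel235. No header or label used here names the aligner, the peak caller, the read depth or how reads with several alignments were treated. The series lists were made from the alignments of both replicates, per the deposited notes. Column 7 is a signal and column 5 a score, both as the authors deposited them, with no scale stated. The score was at least 830 in each thresholded list, and it was not used further. The replicate lists held 2219 and 2733 peaks, the series list 3250 and its conservative version 3165.

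Summits were the start plus the deposited offset. Genes came from Ensembl release 115 and sequence from RefSeq. Eligible bases are all bases that satisfy the positional rule. Windows of 75 bp to each side of a summit were aligned with BLAST+ 2.17.0 (expect value at most 1e-10, at least 60 bp, places within 150 bp merged), and families joined windows over 300 bp apart that aligned with each other at 1e-08 over at least 50 bp. Counts and overlaps were computed with Python 3.11.15, pandas 2.3.3 and scipy 1.17.1, and the scripts were tested on simulated data. No test was run over peaks, which are not replicates, and intervals for shares are exact binomial at 95%. Flanking genes were named for the 20 strongest peaks, the strongest by chromosome, orientation and family, those found in 1 replicate alone, and the gene lists. The words were taken from the 6-base words most frequent at summits relative to flanks among those in at least 5% of summit windows. The ranking was made over all intergenic peaks and over those with 1 genomic copy, and AGACCC came from the latter alone. The peaks, gene lists and motifs were chosen with earlier results of these data known. Alternatives were the replicate and conservative lists, stronger peaks, collapsed overlaps, other promoter and small RNA distances, other window sizes, RefSeq genes, and the removal of repeated sequence.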

Additional observations from a re-analysis of the deposited data

How the results depend on the processing

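Of 130 alternatives run for 11 results on position, replication and composition, 81 were labelled unchanged and 49 moved. Shares were judged by counting error and the other results, except the number of peaks, by replicate spread. The number of peaks was judged by a fixed fold limit wider than counting error, which 9 of the 81 met. The number of intergenic peaks was 305 and 359 in the lists of single replicates, 198 in the stronger 50% of the list, 648 with a promoter window of 500 bp, 325 with one of 2000 bp and 478 with RefSeq genes.

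The share found in both replicates was 71.0 to 81.3% when either replicate's list was taken as the start, 94.4% in the stronger 50%, 42.5% with reciprocal overlap and 98.9% with unthresholded lists. The median percentile was 41.2 to 42.6 in single replicates, 41.6 in the conservative list, 71.1 in the stronger 50%, 44.7 with the promoter window of 500 bp, 40.9 with protein-coding genes only, 40.02 for single-copy peaks and 41.2 outside the largest family. Between converging genes the share was 22.2% in the stronger 50%, 21.3% with the window of 500 bp, on 12.8% of eligible bases, and 35.7% with that of 2000 bp, on 19.8%. Summits exceeded flanks in G and C by 8.42 to 9.41 points in single replicates, 9.16 in the stronger 50%, 8.91 with the window of 500 bp, 5.45 for single-copy peaks, 5.94 outside the largest family, 9.80 and 3.73 with windows of 25 and 100 bp to each side, and 6.44 with flanks 600 bp away. The share of masked summits, 44.9% against 42.4% of eligible bases, did not keep its side of that share. Masked summits were 39.4% in the stronger 50%, 30.2% for single-copy peaks and 35.7% outside the largest family, and with the promoter window of 500 bp 41.2%, on 42.3% of eligible bases. In all, 51.9% of windows of 100 bp to each side were mostly masked. The ratio of X to autosomes was 0.119 to 0.188 in single replicates, 0.0826 in the stronger 50% and 0.241 with the window of 2000 bp; its lower single-replicate value came from the list of replicate 1. Within 500 bp of a 3' end there were 55.6% of single-copy peaks and 50.1% of peaks outside the largest family. Genes with a 3' peak had a promoter peak in 34.6% of cases in the stronger 50% and 40.5% with the window of 500 bp. Both settings also limited the promoter peaks counted, and the share over all genes was not computed for them. The causes were not tested. These 3' results, the single-copy and family alternatives and RefSeq genes were chosen after seeing the data.

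No paired analysis was possible because the 2 replicates form 1 group. Depth is unknown, so a copy or gene without a peak was not shown to be unbound.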
